A study of Mus musculus with 4 samples.

Results

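The BCL2 family decides at the outer membrane of mitochondria whether a cell enters apoptosis. The effectors Bax and Bak1 open pores in that membrane and release cytochrome c. The BH3-only proteins sense damage or lost survival signals and turn the effectors on, and the anti-apoptotic proteins hold both kinds in check. In the testis, spermatocytes that fail in meiosis are known to be removed by apoptosis, and Bax is known to be needed for the normal loss of germ cells in young mice.

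Transcripts of 10 members of this family were examined among the 23980 genes measured, and they were chosen by name as the central pro- and anti-apoptotic regulators. They were 2 effectors (Bax and Bak1), 5 BH3-only genes (Bbc3, Pmaip1, Bcl2l11, Bid and Bad) and 3 anti-apoptotic genes (Bcl2, Bcl2l1 and Mcl1), so that 7 were pro-apoptotic. The RNA came from spermatocytes at the leptotene and zygotene stages (L/Z), the stages at which meiosis begins, which had been isolated by fluorescence-activated cell sorting. All mice were 3 to 4 weeks old and of an F1 background between C57BL6/J and MSM/Ms. There were 4 libraries of polyadenylated RNA, and they were labelled Dnmt3L_Het (a heterozygote), Dnmt3L_KO, Pld6 KO and Pld6 WT. The KO (knockout) genotypes are constitutive mutants, and the labels do not give the number of animals in a library. Dnmt3L is a partner of the DNA methyltransferases that methylate retrotransposons in male germ cells. Pld6 is a mitochondrial protein needed to make piRNAs, small RNAs that guide this methylation at some retrotransposons and the cleavage of retrotransposon RNAs. Dnmt3L Het and Pld6 WT served as the 2 controls, and each mutant was represented by 1 library. Since the controls differ in genotype and line, their spread is not that of true replicates, and no mutant value has a replicate check.

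Fragments assigned to genes ranged from 30439943 (Pld6 KO) to 63875934 (Dnmt3L Het) per library. Each targeted gene was at its lowest in its own KO library, with Pld6 at 0.334 FPKM in Pld6 KO and Dnmt3l at 0 in Dnmt3L KO. FPKM is the fragment count of a gene scaled to transcript length and library depth. Markers of L/Z spermatocytes were present in every library, with none of the 12 listed at 0 and a summed level from 1109 FPKM (Dnmt3L KO) to 3301 FPKM (Pld6 WT). The libraries also differed in markers of other cells. The 12 Sertoli cell markers summed to 4608 FPKM in Dnmt3L Het and 6248 FPKM in Dnmt3L KO, against 221 FPKM in Pld6 WT and 506 FPKM in Pld6 KO, with none at 0 in any library. The 10 spermatid markers summed to 6934, 142, 11.1 and 28.0 FPKM in Dnmt3L Het, Pld6 WT, Pld6 KO and Dnmt3L KO, and 2 of them in Pld6 KO (Acrv1 and Catsper1) and 1 in Dnmt3L KO (Catsper1) were at 0. In bulk RNA of this kind, a change in the share of a cell type and a change in RNA per cell cannot be told apart.

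The members that stood above both controls in both mutants by the largest FPKM ratios were Bcl2l11 and Bcl2. The DNA before their first annotated start is shown as background, with its CG sites, on which DNA methylation falls. Each line holds the 250 bases upstream of the start in RefSeq on GRCm38.p6, which shares its coordinates with mm10, written 5′ to 3′ on the strand of the gene with every CG in capitals. The window of Bcl2l11 was chr2:128125788-128126037 on the plus strand, with 24 CG sites. The window of Bcl2 was chr1:106714291-106714540 on the minus strand, with 36 CG sites.
Bcl2l11: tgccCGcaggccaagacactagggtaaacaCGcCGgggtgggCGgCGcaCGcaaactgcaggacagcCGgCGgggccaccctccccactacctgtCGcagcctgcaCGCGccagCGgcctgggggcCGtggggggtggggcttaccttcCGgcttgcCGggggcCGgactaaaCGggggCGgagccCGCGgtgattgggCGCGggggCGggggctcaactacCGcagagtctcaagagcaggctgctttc
Bcl2: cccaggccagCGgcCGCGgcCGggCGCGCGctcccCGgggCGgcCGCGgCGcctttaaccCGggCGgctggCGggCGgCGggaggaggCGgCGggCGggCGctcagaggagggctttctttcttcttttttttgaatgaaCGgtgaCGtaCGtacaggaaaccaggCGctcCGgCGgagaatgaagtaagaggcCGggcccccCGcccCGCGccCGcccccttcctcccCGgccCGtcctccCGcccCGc

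Over all 32851 RefSeq windows of 250 bases the median was 6 CG sites. Of the 10 members 9 had windows, 15 in number, and 14 of the 15 windows were above this median. The range was wide within the family, from 0 CG sites at 1 start of Bcl2l1 to 37 at 1 start of Bbc3, whose protein PUMA is a p53-induced BH3-only activator. The GC box, spelled GGGCGG and searched on both strands, occurred in 10 of the 15 windows and in 32.7% of all windows. It holds a CG itself, and windows of a gene can overlap, as at Bbc3, so the counts are not independent. Methylation of these windows was not analysed here, and its part in the level of any member was not tested.

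The most abundant member was Bax. Bax (chromosome 7, 45461695 to 45466903, mm10) encodes the effector that moves from the cytosol to mitochondria. Its level was 113 FPKM in Dnmt3L Het, 119 FPKM in Pld6 WT, 84.6 FPKM in Dnmt3L KO and 112 FPKM in Pld6 KO. Dnmt3L KO was the low library, and Pld6 KO lay just under the lower control. The Dnmt3L KO level was 0.747 times that of Dnmt3L Het (95% interval 0.713 to 0.784) and 0.712 times that of Pld6 WT (0.676 to 0.749). These intervals, here and in the rest of the text, are exact binomial intervals of a ratio of FPKM and cover counting error only. They leave out the spread between animals and the transcript length used in each library. The reads carried no molecular identifiers, so duplicate reads would make the intervals too narrow. Set against the mean of the controls, the log2 change was −0.45, on the log2(FPKM + 1) scale that is used for all log2 changes in FPKM and understates the change of low genes.

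Bak1 (chromosome 17, 27019812 to 27028627), whose product sits in the mitochondrial membrane at all times, differed more between the controls than between mutant and control of a line. It was at 8.30 FPKM in Dnmt3L Het, 2.35 FPKM in Pld6 WT, 8.96 FPKM in Dnmt3L KO and 2.30 FPKM in Pld6 KO. The libraries of the Dnmt3L line were high and those of the Pld6 line low, and the mutants overlapped the controls in range. Between the controls the ratio was 3.54 (3.00 to 4.18), while Pld6 KO was 0.978 times Pld6 WT (0.773 to 1.24) and Dnmt3L KO 1.08 times Dnmt3L Het (0.981 to 1.19). The libraries high in Bak1 were also those high in Sertoli cell markers, and the part of these cells in the level of Bak1 was not tested. The exons of Bak1 share 614 bases with Ggnbp1 on the opposite strand in GENCODE M21. Ggnbp1 was at 118, 71.7, 6.66 and 5.91 FPKM in Dnmt3L Het, Pld6 WT, Pld6 KO and Dnmt3L KO, an order unlike that of Bak1. Whether strand was used in counting is not given in the sources used here. Reads of Bak1 and Ggnbp1 thus cannot be told apart with certainty, and the part of Ggnbp1 in the level of Bak1 was not tested.

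**Figure D1:**
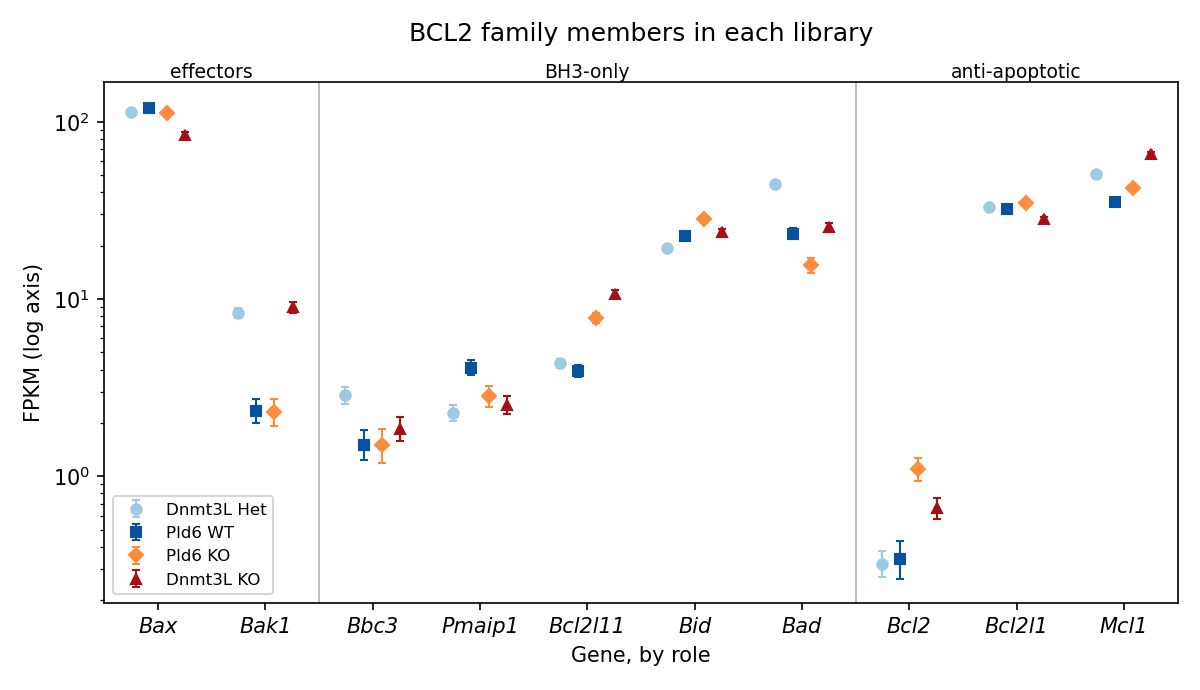
FPKM on a log axis of the 10 members in the 4 libraries, grouped by role. Points are single libraries and bars are exact 95% Poisson intervals, which cover counting error only. Bax is highest in every library and Bcl2 lowest, and the mutants lie above both controls for Bcl2l11, Bid and Bcl2.

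Among the BH3-only genes, Bcl2l11 had the highest mutant levels relative to both controls. Bcl2l11 (chromosome 2, 128126038 to 128162547) encodes BIM, an activator of Bax and Bak1 that is also bound by every anti-apoptotic member studied here. Its level was 4.33 FPKM in Dnmt3L Het (95% Poisson interval 4.08 to 4.59), 3.93 FPKM in Pld6 WT (3.63 to 4.24), 10.7 FPKM in Dnmt3L KO (10.3 to 11.2) and 7.82 FPKM in Pld6 KO (7.35 to 8.31). The controls lay close together and both mutants lay above them without overlap. These levels rested on 658 to 1997 fragments per library. Pld6 KO was 1.81 times Dnmt3L Het (1.66 to 1.97) and 1.99 times Pld6 WT (1.80 to 2.20). Dnmt3L KO was 2.48 times Dnmt3L Het (2.30 to 2.67) and 2.73 times Pld6 WT (2.501 to 2.99). The log2 changes against the mean of the controls were 1.19 in Dnmt3L KO and 0.78 in Pld6 KO, larger than those of 93.1% and 93.2% of the 14416 genes with a mean FPKM of at least 1. The neighbour Acoxl overlaps the Bcl2l11 locus on the same strand but shares 0 exon bases with it, and its level did not exceed 1.74 FPKM in any library. Markers of macrophages and leukocytes, cells that also express Bcl2l11, summed to 27.4 FPKM in Pld6 WT and 57.0 FPKM in Dnmt3L Het. The sum was 61.6 FPKM in Pld6 KO, only just above Dnmt3L Het, with 6 of the 10 markers above both controls. It was 114 FPKM in Dnmt3L KO, with all 10 above both. The part of these cells in the level of Bcl2l11 was not tested.

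Bid (chromosome 6, 120893119 to 120917062), the BH3-only protein that links death receptors to mitochondria once caspase 8 has cut it, was also above both controls in both mutants, by less. It was at 19.4 FPKM in Dnmt3L Het, 22.8 FPKM in Pld6 WT, 23.9 FPKM in Dnmt3L KO and 28.3 FPKM in Pld6 KO. Pld6 KO was the high library, and Dnmt3L KO was only 1.05 times Pld6 WT (0.978 to 1.12), an interval that includes 1. The log2 changes were 0.17 in Dnmt3L KO and 0.41 in Pld6 KO.

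Bad (chromosome 19, 6941861 to 6951905), a BH3-only protein that survival kinases keep inactive by phosphorylation, varied between the controls. It was at 44.7 FPKM in Dnmt3L Het, 23.3 FPKM in Pld6 WT, 25.4 FPKM in Dnmt3L KO and 15.5 FPKM in Pld6 KO. Within each line the mutant was the lower library, with ratios of 0.662 (0.585 to 0.749) in the Pld6 line and 0.568 (0.527 to 0.612) in the Dnmt3L line. Yet Dnmt3L KO was 1.09 times Pld6 WT (0.989 to 1.20), so that the range of the mutants overlapped that of the controls. In GENCODE M21 the exons of Bad share 524 bases with Gpr137 on the opposite strand, and Gpr137 followed a like order at 29.7, 20.7, 16.1 and 21.0 FPKM in Dnmt3L Het, Pld6 WT, Pld6 KO and Dnmt3L KO. The library kit was stranded, but whether strand was used in counting is not given in the sources used here, so reads of Bad and Gpr137 cannot be told apart with certainty.

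Bbc3 and Pmaip1, which p53 is known to induce, had the lowest means over the 4 libraries among the pro-apoptotic members. Bbc3 (chromosome 7, 16308398 to 16318334) was at 2.86 FPKM in Dnmt3L Het, 1.51 FPKM in Pld6 WT, 1.85 FPKM in Dnmt3L KO and 1.49 FPKM in Pld6 KO. Pmaip1, which encodes NOXA, a BH3-only protein that acts mainly on MCL1, was at 2.27 FPKM in Dnmt3L Het, 4.11 FPKM in Pld6 WT, 2.53 FPKM in Dnmt3L KO and 2.83 FPKM in Pld6 KO. For each gene a control held the highest level and the mutants overlapped the controls, with Bbc3 in Pld6 KO at 0.990 times its level in Pld6 WT (0.736 to 1.33). The controls differed by a ratio of 1.89 (1.52 to 2.37) for Bbc3 and 0.552 (0.478 to 0.638) for Pmaip1, Dnmt3L Het over Pld6 WT, in opposite directions.

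Among the anti-apoptotic genes, Bcl2 was the lowest of all members, with both mutants above both controls. Bcl2 (chromosome 1, 106538176 to 106714290), the founding survival gene of the family, was at 0.321 FPKM in Dnmt3L Het (95% Poisson interval 0.271 to 0.377), 0.340 FPKM in Pld6 WT (0.263 to 0.433), 0.658 FPKM in Dnmt3L KO (0.570 to 0.754) and 1.10 FPKM in Pld6 KO (0.936 to 1.27). In FPKM the counting intervals of the controls overlapped, Pld6 KO was the high library, and no mutant interval reached a control interval. The ratios were 3.41 (2.72 to 4.29) and 3.22 (2.41 to 4.35) for Pld6 KO over Dnmt3L Het and Pld6 WT, and 2.05 (1.65 to 2.55) and 1.93 (1.46 to 2.59) for Dnmt3L KO. The fragments behind these values were 146, 66, 168 and 204 in Dnmt3L Het, Pld6 WT, Pld6 KO and Dnmt3L KO. These FPKM ratios also depend on the transcript length used in each library, which their intervals leave out. From fragments, the edgeR fit described below gave Bcl2 log2 fold changes of 1.40 for Pld6 KO and 1.14 for Dnmt3L KO. From FPKM with nothing added, the log2 changes were 1.73 and 0.99. Fragments thus gave a smaller change than FPKM for Pld6 KO and a larger change for Dnmt3L KO. Because the level is low, adding 1 FPKM reduced the log2 changes to 0.32 in Dnmt3L KO and 0.66 in Pld6 KO. With 0.1 FPKM added instead they were 0.81 and 1.47, and Bcl2 then passed the 2-fold threshold in Pld6 KO.

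Bcl2l1 (chromosome 2, 152758732 to 152833803), which encodes BCL-XL, had the narrowest range. It was at 32.9 FPKM in Dnmt3L Het, 32.0 FPKM in Pld6 WT, 28.2 FPKM in Dnmt3L KO and 34.7 FPKM in Pld6 KO. Pld6 KO was slightly above and Dnmt3L KO slightly below both controls, and the highest library was 1.23 times the lowest.

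Mcl1 (chromosome 3, 95656944 to 95663179), which encodes a short-lived survival protein, was the most abundant anti-apoptotic member. It was at 50.8 FPKM in Dnmt3L Het, 35.1 FPKM in Pld6 WT, 66.2 FPKM in Dnmt3L KO and 42.1 FPKM in Pld6 KO. Dnmt3L KO was the high library, at 1.30 times Dnmt3L Het (1.27 to 1.34) and 1.88 times Pld6 WT (1.82 to 1.95), and Pld6 KO lay between the controls. The controls differed by a ratio of 1.45 (1.40 to 1.498).

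Members were next counted against the whole transcriptome. A gene was called when its FPKM + 1 exceeded that of each control by more than 2-fold, or fell short of each by more than 2-fold. In Pld6 KO 0 of 10 members were called, against 1.04% of all genes called higher and 5.41% called lower. In Dnmt3L KO 1 of 10 was called, Bcl2l11, higher, and 0 were called lower, against 2.14% of all genes higher and 5.78% lower. Among genes with a mean FPKM of at least 1, the shares for Dnmt3L KO were 3.29% higher and 9.16% lower, and for Pld6 KO 1.51% higher and 8.57% lower. A count of 1 in 10 against shares of this size is no more than a description of Bcl2l11. At 1.5-fold, Bcl2l11 and Bcl2 were called higher in Pld6 KO and 0 members lower, against 4.40% of all genes higher and 8.44% lower. At the same threshold Bcl2l11 alone was called in Dnmt3L KO, against 7.13% higher and 9.16% lower. Without Dnmt3L Het, Bak1 was called higher in Dnmt3L KO beside Bcl2l11, against 12.1% of all genes higher and 8.75% lower. Without Pld6 WT, Bak1 and Bad were called lower in Pld6 KO, against 13.4% of all genes lower and 5.55% higher.

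Without a threshold on size, Pld6 KO lay above both controls for 4 members and below both for 4, and Dnmt3L KO above for 5 and below for 2. Of genes with a mean FPKM of at least 1, 31.0% lay above and 32.4% below both controls in Pld6 KO, and 35.5% above and 34.0% below in Dnmt3L KO. Both mutants lay above both controls for Bcl2l11, Bid and Bcl2, and below both for Bax, while the other 6 members overlapped. The same held above for 13.6% and below for 20.7% of genes with a mean FPKM of at least 1, a set that does not hold Bcl2 with its mean of 0.604 FPKM.

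**Figure D2:**
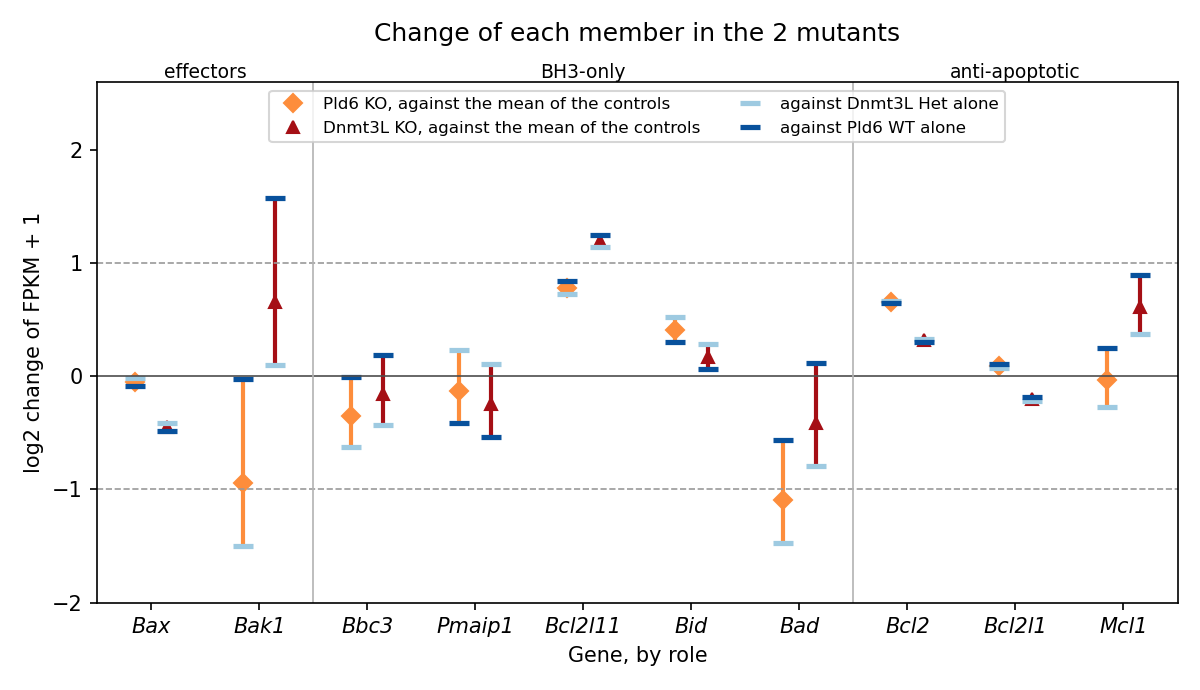
Log2 change of FPKM + 1 for each member in Pld6 KO and Dnmt3L KO. Diamonds and triangles compare the mutant with the mean of the controls, the short dashes with Dnmt3L Het or Pld6 WT alone, and dashed lines mark 2-fold. Only Bcl2l11 in Dnmt3L KO has both comparisons beyond 2-fold, and the wide spans of Bak1 and Bad reflect the distance between the controls.

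To compare mutants without shared libraries, each was set against the control of its own line. In the Pld6 line 0 of 10 members passed 2-fold, against 4.69% of all genes higher and 6.46% lower. In the Dnmt3L line 1 passed, Bcl2l11 (log2 change 1.14), against 3.00% of all genes higher and 8.22% lower. The Bcl2l11 log2 change in the Pld6 line was 0.84. In 7 members the direction was the same in both lines, with Bcl2l11, Bid, Bcl2 and Mcl1 higher and Bax, Bbc3 and Bad lower in the mutant. Of these, the counting interval of Bbc3 in the Pld6 line included 1 (0.736 to 1.33). Between the controls themselves 1 of 10 members passed 2-fold, Bak1, against 11.1% of all genes higher and 3.77% lower in Dnmt3L Het than in Pld6 WT.

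**Figure D3:**
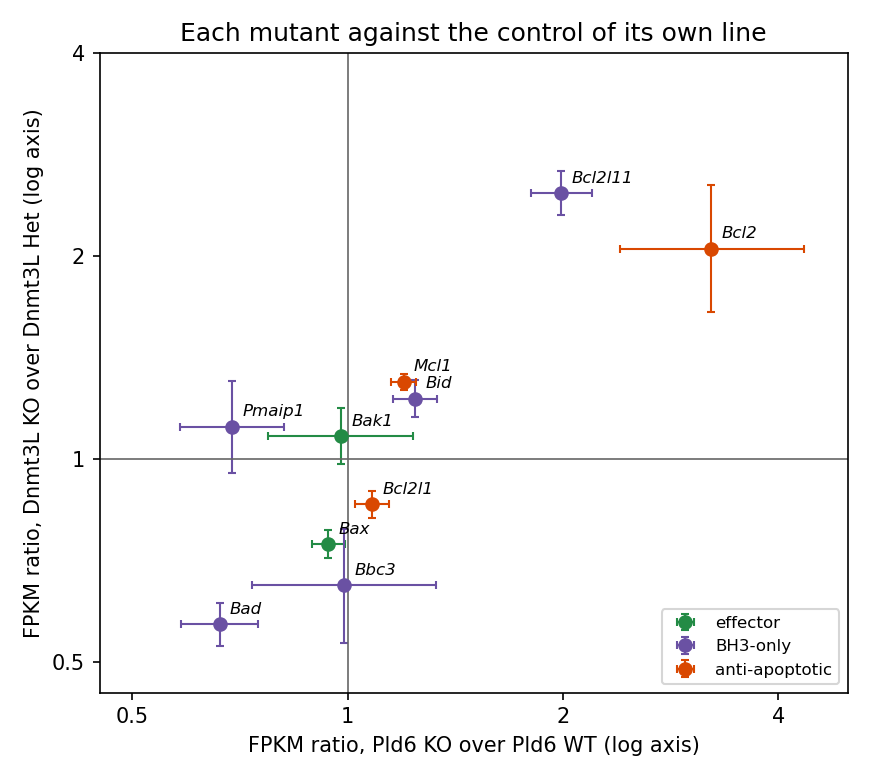
FPKM ratio of each member in Pld6 KO over Pld6 WT and in Dnmt3L KO over Dnmt3L Het, on log axes with 1 marking no difference. Points are genes, coloured by role, and bars are exact 95% intervals that cover counting error only. Bcl2l11 and Bcl2 lie furthest to the upper right, while Bad lies to the lower left.

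With the fragments in edgeR's quasi-likelihood test, in which the spread comes from the 2 controls alone, 0 members had an adjusted p below 0.05 in either mutant, and 0 of 18657 genes did (0% of those tested, for Dnmt3L KO as for Pld6 KO). All 10 members passed the filter on low counts. The member nearest the threshold was Bcl2l11 in Dnmt3L KO, with a log2 fold change of 1.32 (SE 0.66) and an adjusted p of 0.719. In Pld6 KO it was Bcl2, with a log2 fold change of 1.40 (SE 0.86) and an adjusted p of 0.913. At an unadjusted p of 0.05 edgeR called 0 members in either mutant, while over all genes the test called 203 higher and 1440 lower for Dnmt3L KO, and for Pld6 KO 102 higher and 1383 lower. Without the filter on low counts edgeR still called 0 members, but over all genes 6 higher and 423 lower for Dnmt3L KO, and for Pld6 KO 8 higher and 429 lower, so the share of 0% rests on the filter. DESeq2 also called 0 members, and over all genes 17 higher and 919 lower for Dnmt3L KO, and for Pld6 KO 15 higher and 957 lower.

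Since each mutant has a control of its own line, edgeR was also run with line as a block and 1 effect shared by both mutants, a fit that was added after the other results had been seen. It treats the mutants as replicates of each other and leaves 1 residual degree of freedom. It called 0 members, against 0.959% of 18657 genes higher and 6.32% lower. Bcl2l11 came nearest, with a log2 fold change of 1.11 (SE 0.30) and an adjusted p of 0.0706 from edgeR, against an adjusted p of 0.525 in the same fit without the block. Bad followed with a log2 fold change of −0.72 (SE 0.31, adjusted p 0.267) and Bcl2 with 1.28 (SE 0.64, adjusted p 0.336).

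The pro- and anti-apoptotic groups were then set side by side. The median log2 change of the 7 pro-apoptotic members was −0.16 in Dnmt3L KO and −0.13 in Pld6 KO, and that of the 3 anti-apoptotic members was 0.32 and 0.09. Over the 14416 genes with a mean FPKM of at least 1 the medians were −0.02 and −0.05. Against the control of the own line, the pro-apoptotic median was −0.02 in the Pld6 line and 0.10 in the Dnmt3L line, and the anti-apoptotic median was 0.25 and 0.33. The sign of the pro-apoptotic median in Dnmt3L KO was not stable, since it was negative against the mean of the controls but positive against Dnmt3L Het alone and Pld6 WT alone (0.10 and 0.12).

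Summed over the group, pro-apoptotic transcripts reached 195 FPKM in Dnmt3L Het, 177 FPKM in Pld6 WT, 158 FPKM in Dnmt3L KO and 170 FPKM in Pld6 KO. Anti-apoptotic transcripts summed to 84.1, 67.5, 95.01 and 77.8 FPKM in the same order. The ratio of these sums was 2.32 and 2.62 in the controls, 1.66 in Dnmt3L KO and 2.18 in Pld6 KO, so the mutants lay below both controls. Bax alone made up 53.6% to 67.2% of the pro-apoptotic sum. Leaving Bax out, the ratio was 0.974 and 0.860 in the controls, 0.772 in Dnmt3L KO and 0.748 in Pld6 KO, again below both controls. This position rested on Bad. With Bax and Bad both left out, the ratio was 0.442 in Dnmt3L Het, 0.514 in Pld6 WT, 0.505 in Dnmt3L KO and 0.550 in Pld6 KO, so that Pld6 KO lay above both controls and Dnmt3L KO between them. With 1 library per mutant these differences have no test.

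Ratios of single members differed in direction. Bax over Bcl2l1 was 3.44 in Dnmt3L Het, 3.71 in Pld6 WT, 3.00 in Dnmt3L KO and 3.22 in Pld6 KO, lower in both mutants. Bcl2l11 over Mcl1, an activator over a protein that binds it, was 0.0851 in Dnmt3L Het, 0.112 in Pld6 WT, 0.162 in Dnmt3L KO and 0.186 in Pld6 KO, higher in both mutants. Bax over Bak1 separated the lines and not the genotypes, at 13.6 in Dnmt3L Het and 9.44 in Dnmt3L KO against 50.7 in Pld6 WT and 48.7 in Pld6 KO. These ratios describe transcripts, while activity of the proteins also depends on binding and phosphorylation, which were not measured.

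**Figure D4:**
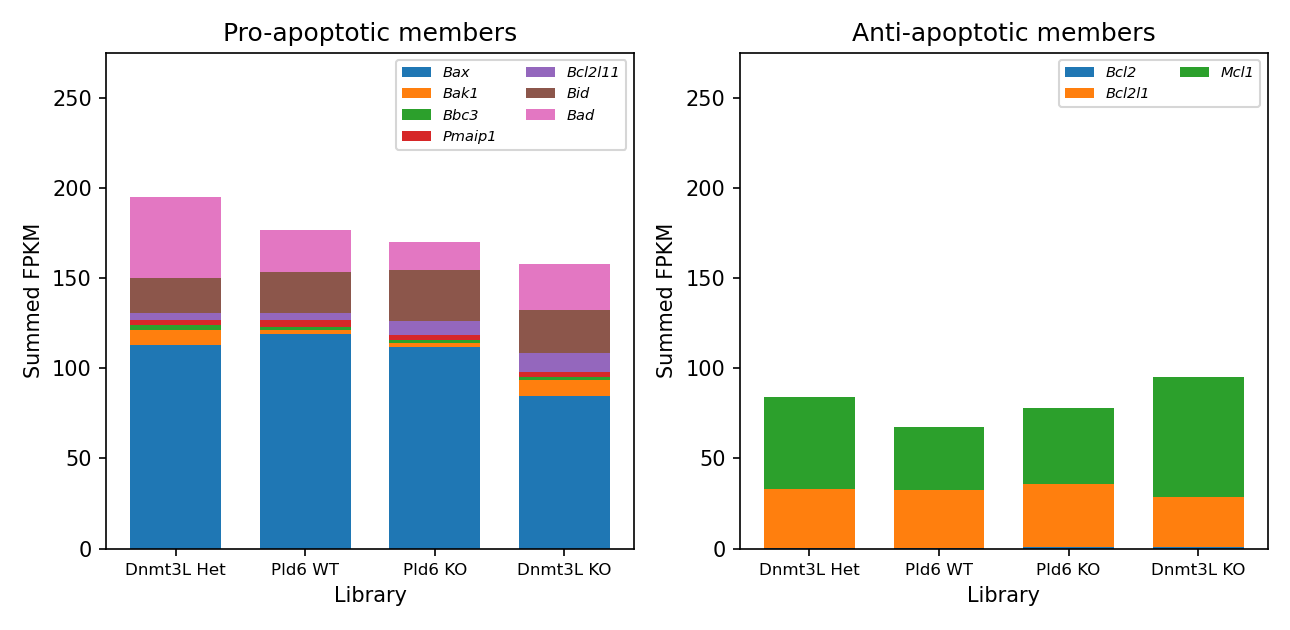
Summed FPKM of the 7 pro-apoptotic members and the 3 anti-apoptotic members in each library, as stacked bars that start at 0. Bax fills more than any other pro-apoptotic gene in every library, and the anti-apoptotic sum is highest in Dnmt3L KO at 95.01 FPKM, where the pro-apoptotic sum is lowest at 158 FPKM.

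The other genes of the pathway were examined in 4 lists. Of 15 further BCL2 family genes, 0 were called higher and 1 lower in Pld6 KO (median log2 change −0.32), and 1 higher and 1 lower in Dnmt3L KO (median 0.09). Bcl2l14 was lower in both, at 14.9, 5.40, 0.297 and 0.0941 FPKM in Dnmt3L Het, Pld6 WT, Pld6 KO and Dnmt3L KO, with log2 changes of −3.10 and −3.35 in Pld6 KO and Dnmt3L KO. The summed spermatid markers were also lower in both mutants than in either control, and their part in the level of Bcl2l14 was not tested. Bcl2l2, an anti-apoptotic gene whose product BCL-W is needed for spermatogenesis and is known in Sertoli cells, was higher in Dnmt3L KO. It was at 25.5, 8.18, 11.7 and 58.6 FPKM in the same order (log2 change 1.74 in Dnmt3L KO). Sertoli cell markers were also highest in Dnmt3L KO, and their part in the level of Bcl2l2 was not tested.

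Of 18 genes of the apoptosome, the executioner caspases and their inhibitors, 1 was called lower in each mutant and 0 higher, with medians of 0.29 in Dnmt3L KO and −0.08 in Pld6 KO. This gene was Cyct, the cytochrome c of testis that germ cells switch to in meiosis, at 87.8 FPKM in Dnmt3L Het, 58.1 FPKM in Pld6 WT, 17.3 FPKM in Dnmt3L KO and 24.2 FPKM in Pld6 KO (log2 changes −2.01 and −1.55). Markers of pachytene spermatocytes, the next stage, summed to 1327 and 820 FPKM in Dnmt3L Het and Pld6 WT and to 134 and 93.2 FPKM in Pld6 KO and Dnmt3L KO, and their part in the level of Cyct was not tested. The somatic cytochrome c gene Cycs followed the lines instead, at 213 and 247 FPKM in Dnmt3L Het and Dnmt3L KO against 53.4 and 52.0 FPKM in Pld6 WT and Pld6 KO. Cycs was chosen after its values were seen, as the counterpart of Cyct.

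Of 10 genes of the death receptor arm, 0 were called in Pld6 KO (median −0.34) and 2 were called higher in Dnmt3L KO (median 0.68). These were Cflar, which encodes the caspase 8 inhibitor FLIP, with a log2 change of 1.66, and Ripk1, a kinase that acts below death receptors, with a log2 change of 1.06. Cflar was at 3.35, 0.780, 1.10 and 8.65 FPKM and Ripk1 at 6.19, 5.71, 7.79 and 13.5 FPKM in Dnmt3L Het, Pld6 WT, Pld6 KO and Dnmt3L KO. Between the controls 5 of the 10 were more than 2-fold higher in Dnmt3L Het, against 11.1% of all genes. Sertoli cell markers were also higher in that library, and their part in this list was not tested. Of 17 genes of the p53 family and its targets, 0 were called in either mutant. Their log2 changes ran from −0.52 to 1.31 in Dnmt3L KO (median −0.15) and from −1.09 to 0.79 in Pld6 KO (median 0.11). Trp53, chosen after its values were seen, was at 28.7, 18.4, 34.6 and 50.6 FPKM in Dnmt3L Het, Pld6 WT, Pld6 KO and Dnmt3L KO. Both mutants were thus above both controls, as for 13.6% of genes with a mean FPKM of at least 1. Members that p53 is known to induce, among them Bax, Bbc3 and Pmaip1, were not called in either mutant.

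The 2 members with the widest range were followed to the genes whose pattern over the 4 libraries was most like theirs, as the Euclidean distance between centred log2(FPKM + 1) values among 14407 genes. For Bak1 these were Plin3 (distance 0.09), Slc25a1 (0.09) and Eno1b (0.10), each high in the Dnmt3L line. For Bad they were Dynlt1a (0.06), Rundc3a (0.13) and Hmga2 (0.14), each highest in Dnmt3L Het and lowest in Pld6 KO. With 4 libraries, many genes can lie close by this measure.

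The members were also set beside the marker lists. The pattern of Bcl2l11 lay nearest the list of macrophages and leukocytes, at a distance of 0.31 against 1.03 for a flat pattern and 1.13 for the next list, that of peritubular and vascular cells. None of the 10 genes of this list was at 0 in any library. In these libraries all 10 were above both controls in Dnmt3L KO and 6 of 10 in Pld6 KO. Lyz2, C1qa, C1qb and Cd14 lay between the controls in Pld6 KO, with Lyz2 at 12.6 FPKM there and 18.4 FPKM in Dnmt3L Het. The pan-leukocyte gene Ptprc, which encodes CD45, was at 0.0867, 0.232, 1.13 and 0.836 FPKM and the macrophage receptor Csf1r at 2.72, 1.47, 5.88 and 8.12 FPKM in Dnmt3L Het, Pld6 WT, Pld6 KO and Dnmt3L KO. White blood cells are known to express Bcl2 and Mcl1 as well as Bcl2l11, and their part in the levels of Bcl2 and Mcl1 was not tested. Mcl1 was nearest the same list (0.49 against 0.66 for a flat pattern). Bak1 lay nearest the erythroid list (1.26 against 1.54 for a flat pattern), then macrophages and leukocytes (1.29), while the Sertoli cell list (2.07) was farther than a flat pattern. Yet Bak1 was highest in Dnmt3L KO, as was the Sertoli cell sum, while the erythroid sum was highest in Dnmt3L Het. It was lowest in Pld6 KO, as was the erythroid sum, while the Sertoli cell sum was lowest in Pld6 WT. Pmaip1 lay nearest spermatogonia (0.477 against 0.487 for a flat pattern). The other 6 members, Bcl2 among them (0.54), lay nearer a flat pattern than any list. For Bcl2 the nearest lists were spermatogonia (0.62), peritubular and vascular cells (0.71) and macrophages and leukocytes (0.77). Of the 8 peritubular and vascular markers 5 were above both controls in Pld6 KO and 2 in Dnmt3L KO. Of the 10 spermatogonia markers 4 and 1 were. The part of these cells in the level of Bcl2 was not tested either. The distances are not scaled to the range of a gene or list. A list of wide range, such as that of Sertoli cells, thus lies far from a narrower member whatever its shape. No conclusion on cell types is drawn for Bak1. A member of narrow range or low level lies near a flat pattern. Bcl2, with a mean of 0.604 FPKM, is such a member, and no conclusion on cell types is drawn for it.

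**Figure D5:**
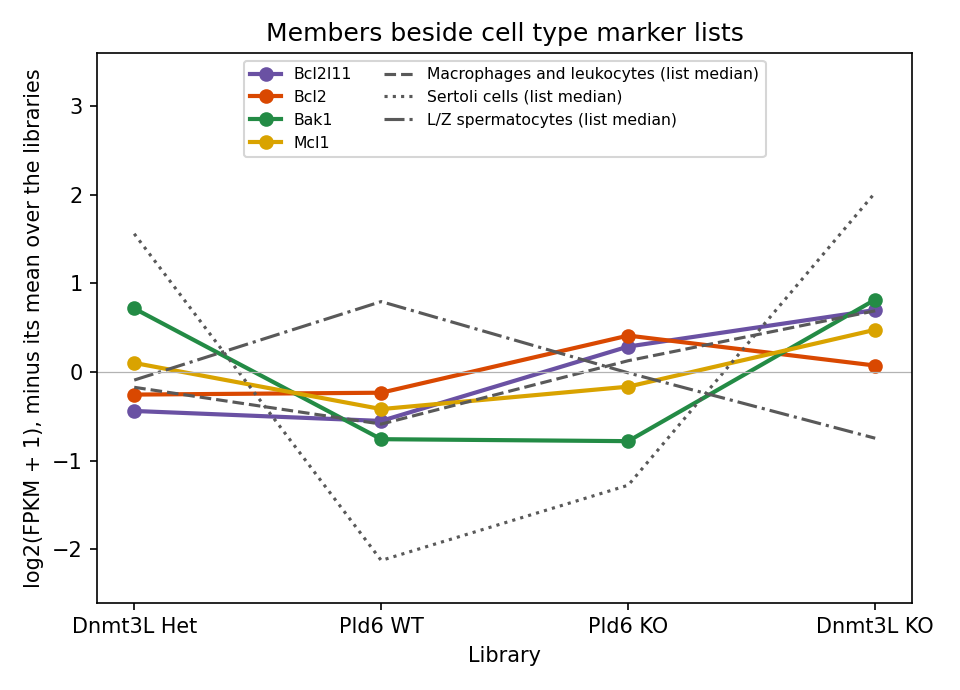
Log2(FPKM + 1) minus its mean over the 4 libraries, for Bcl2l11, Bcl2, Bak1 and Mcl1 and for the median of 3 marker lists (each marker centred first). Lines join libraries only to guide the eye. Bcl2l11 runs beside the macrophage and leukocyte list, and Bak1 is high in the libraries where the Sertoli cell list is high, over a narrower range than that list.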

How the data were processed

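The deposited table holds, for 23980 genes and 4 libraries, estimated counts of fragments and FPKM, both made by the authors from single-end reads of 50 bases (stranded polyA libraries). The submitters' processing notes name TopHat, Cuffdiff and mm10, with versions not given in the sources used here. Of the estimated counts, 97.3% to 97.4% per library were exactly whole, zeros included, and 96.4% to 96.9% of those above 0. A further 2 columns of scaled fragments were not used. The table marked 28 genes with a failed value, none of them a member.

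The members and gene lists were chosen with earlier results of these data known, and the pathway and marker lists come from general knowledge. Changes were computed as log2 of FPKM + 1 over the mean of the controls + 1, called when more than 2-fold beyond both controls. Pathway genes were named when called in a mutant, in the same direction within the line, with at least 50 fragments in a library, at most the 3 largest per list and mutant. Members were all named, and likeness was computed for the 2 of widest range. Estimated counts were rounded and tested with edgeR 4.0.16 (quasi-likelihood, TMM, filterByExpr, Benjamini-Hochberg) in R 4.3.3, with 1 residual degree of freedom from the controls. SEs are the log2 fold change over the root of F. DESeq2 1.42.0 was an alternative, as were other pseudocounts, thresholds, scalings and single controls. The edgeR step was tested on simulated data, counts drawn around the control means with known changes. The labels give no replicate numbers, and a fit with line as a block was added after the results were seen. Intervals (95%) were computed with scipy 1.17.1. Positions and promoter windows are those of RefSeq on GRCm38.p6, and 9 of the 10 members had a window. Overlaps of exons are from GENCODE M21, which may differ from the authors' annotation. The depth was 30439943 to 63875934 fragments per library, and a count of 0 at any depth allows an expected count of up to 3 fragments. The study's own comparisons and the allelic reads were not analysed here.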

Additional observations from a re-analysis of the deposited data

Results flagged for a closer look

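For 3 members the mutant moved one way in the Pld6 line and the other way in the Dnmt3L line, each against its own control, and these differences between lines were not tested. Bcl2l1 had a log2 change of 0.11 in Pld6 KO against Pld6 WT and −0.22 in Dnmt3L KO against Dnmt3L Het, and the counting intervals of its FPKM ratios (1.03 to 1.14 and 0.818 to 0.896) both left out 1. Pmaip1 had log2 changes of −0.41 and 0.11, and its interval in the Dnmt3L line (0.953 to 1.30) included 1. Bak1 had log2 changes of −0.022 and 0.10, and its intervals included 1 in both lines.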

How the results depend on the processing

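Members beyond both controls in Pld6 KO numbered 1 (Bcl2) with 0.1 FPKM as pseudocount, 1 (Bcl2) with no pseudocount and at least 3 fragments, and 2 (Bcl2l11 and Bcl2) at 1.5-fold, against 0. Leaving out 1 control gave 0 to 2 (Bak1 and Bad without Pld6 WT). In Dnmt3L KO the count was 0 at 3-fold, against 1, and 1 to 2 with 1 control left out (Bak1 added without Dnmt3L Het). Within the Pld6 line the count was 1 with 0.1 FPKM, 1 on TMM-scaled fragments (Bcl2 in both) and 2 at 1.5-fold. Within the Dnmt3L line it was 2 at 1.5-fold (Bad added), and between the controls 4 at 1.5-fold (Bak1, Bbc3, Bad and Pmaip1). Shares over all genes were not computed for other pseudocounts, TMM scaling or 3-fold, nor for 1.5-fold within a line or between the controls. The counts at those settings therefore describe the members only. The pro-apoptotic median ran from −0.022 to −0.019 in Pld6 KO and from 0.10 to 0.12 in Dnmt3L KO with 1 control left out, a change of sign in the latter. The anti-apoptotic median in Pld6 KO was 0.017 on TMM-scaled fragments and 0.074 to 0.25 with 1 control left out. In Dnmt3L KO it was 0.62 with 0.1 FPKM, 0.62 with no pseudocount and 0.60 on TMM-scaled fragments, and 0.31 to 0.33 with 1 control left out. The ratio of the pro- to the anti-apoptotic sum no longer lay below both controls in either mutant with Bax and Bad left out, a choice added after seeing the data. The cause of these shifts was not tested.

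Under other pseudocounts and scaling all 10 members kept their direction against the mean of the controls in both mutants. Without Dnmt3L Het, Mcl1 changed direction in Pld6 KO and Bad and Bbc3 in Dnmt3L KO. Without Pld6 WT, Pmaip1 did in both. No member passed edgeR or DESeq2 under any setting run. Leaving out a control there leaves no residual degree of freedom, so it was not run. The labels give no replicate numbers to pair by. With line as a block and 1 effect shared by the mutants, a fit added after seeing the data, edgeR called 0 members, as without the block, and over all genes 179 higher and 1179 lower against 0 without it. The median change of all genes with a mean FPKM of at least 1 shifted from −0.05 to −0.09 in Pld6 KO and stayed at −0.02 in Dnmt3L KO on TMM-scaled fragments. Bcl2 rested on 66 to 204 fragments per library and Bbc3 on 84 to 329.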
